A study of Mus musculus with 35 samples.

Results

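The genes described here build the axoneme and the accessory structures of the sperm tail. They were chosen by symbol: every gene whose annotated symbol starts with Dnah, Dnai, Dnal, Tekt, Rsph, Cfap, Odf or Spag followed by a digit, or equals Akap3 or Akap4, each represented by its brightest probe set with a single symbol. The rule gave 81 of 21579 genes, 80 of 19938 on the array used at postnatal day 15 and 66 of 18194 on the array used at day 25, with 65 on both. The rule reads symbols, and measured values entered in the pick of the probe set. After removal of genes that were dim on nearly all arrays, 74 members could be tested at day 15 and 63 at day 25. Akap4, Cfap100, Cfap97d1, Odf3l1, Rsph4a and Spag11b fell below that limit at day 15, and Cfap47, Dnah17 and Rsph4a did so at day 25. The 81 members comprised 31 Cfap, 15 Dnah, 12 Spag, 8 Odf, 6 Rsph, 5 Tekt and 2 Dnal genes with Akap3 and Akap4. No symbol with Dnai and a digit was annotated, so Dnai1 has no value under that name.

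Whole testis RNA of male C57BL6 mice was measured on 1 array per mouse, with MoGene 1.0 ST arrays for the younger mice and Affymetrix Mouse430_2 arrays for the older. The groups crossed 3 Akt1 genotypes (homozygous mutant, Akt1-/-; heterozygous, Akt1+/-; wild type, Akt1+/+) with exposure to 6-N-propylthiouracil (PTU), a goitrogen that lowers thyroid hormone production, against no exposure. At each day there were homozygous PTU-exposed, homozygous unexposed, heterozygous PTU-exposed, heterozygous unexposed, wild type PTU-exposed and wild type unexposed mice. Each group held 3 arrays except the PTU-exposed homozygous mice of day 25, with 2, because the submitters left out 1 array for quality. The sources used here do not give the design of the Akt1 allele or the dose and timing of PTU. Because the 2 array types differ, levels are given within a day and never set against the other day. Values are log2 intensities, a difference of 1 being a 2-fold change, and a member is called when its limma p-value, adjusted by Benjamini-Hochberg over all genes tested at that day, is under 0.05.

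The sperm tail is built around an axoneme, a ring of doublet microtubules around a central pair. Dynein arms on the doublets generate sliding, radial spokes relay signals from the central apparatus, tektins and other inner proteins stiffen the doublets, and outer dense fibres and a fibrous sheath surround the axoneme in the tail. In the first wave of spermatogenesis many axonemal genes are switched on in pachytene spermatocytes, whereas proteins of the dense fibres and fibrous sheath are largely made in spermatids. Whole testis RNA holds all cell types, so fewer germ cells of a stage and less RNA per cell cannot be told apart in any result below.

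RefSeq promoter windows (GRCm38.p6, 250 bases before to 50 after the transcript start) were available for 67 members. Windows of members that changed together in the comparisons below are shown, as those with matches to sites of factors known in ciliary or male germ cell transcription. Capitals mark an RFX core site (GTTGCCA), a MYB site (AACTGNC), a CRE core (TGACGTC) or a FOXJ1 site (GTAAACA), each searched on both strands, with overlapping matches running together.
Cfap161, chr7:83794790-83795089, minus strand: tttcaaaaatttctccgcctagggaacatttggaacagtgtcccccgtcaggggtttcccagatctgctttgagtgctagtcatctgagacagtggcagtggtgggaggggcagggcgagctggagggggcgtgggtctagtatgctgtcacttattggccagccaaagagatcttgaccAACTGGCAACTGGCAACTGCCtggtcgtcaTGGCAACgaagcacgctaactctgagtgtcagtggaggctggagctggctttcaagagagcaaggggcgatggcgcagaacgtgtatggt
Tekt1, chr11:72361247-72361546, minus strand: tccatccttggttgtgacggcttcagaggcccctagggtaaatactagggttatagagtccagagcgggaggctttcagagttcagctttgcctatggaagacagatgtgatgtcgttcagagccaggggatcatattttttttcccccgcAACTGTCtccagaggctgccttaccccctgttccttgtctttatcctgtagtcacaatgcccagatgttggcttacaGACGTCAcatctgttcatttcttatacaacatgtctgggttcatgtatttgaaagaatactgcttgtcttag
Tekt1, chr11:72361833-72362132, minus strand: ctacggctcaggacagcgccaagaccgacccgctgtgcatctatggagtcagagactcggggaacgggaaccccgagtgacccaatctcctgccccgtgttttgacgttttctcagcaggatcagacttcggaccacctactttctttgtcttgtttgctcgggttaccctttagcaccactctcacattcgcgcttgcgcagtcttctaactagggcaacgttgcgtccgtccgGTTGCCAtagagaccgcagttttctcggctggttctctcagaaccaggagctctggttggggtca
Spag6l, chr16:16829314-16829613, minus strand: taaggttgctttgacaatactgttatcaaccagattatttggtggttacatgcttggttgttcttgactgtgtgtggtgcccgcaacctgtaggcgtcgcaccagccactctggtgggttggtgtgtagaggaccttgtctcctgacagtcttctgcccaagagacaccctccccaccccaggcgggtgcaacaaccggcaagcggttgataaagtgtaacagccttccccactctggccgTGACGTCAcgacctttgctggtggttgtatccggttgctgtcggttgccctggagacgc
Akap3, chr6:126852848-126853147, plus strand: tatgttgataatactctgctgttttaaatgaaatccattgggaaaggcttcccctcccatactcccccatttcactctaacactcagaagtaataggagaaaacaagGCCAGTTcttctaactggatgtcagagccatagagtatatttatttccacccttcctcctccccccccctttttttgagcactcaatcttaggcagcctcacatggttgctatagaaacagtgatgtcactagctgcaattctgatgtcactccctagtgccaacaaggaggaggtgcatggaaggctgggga
Spag4, chr2:156064963-156065262, plus strand: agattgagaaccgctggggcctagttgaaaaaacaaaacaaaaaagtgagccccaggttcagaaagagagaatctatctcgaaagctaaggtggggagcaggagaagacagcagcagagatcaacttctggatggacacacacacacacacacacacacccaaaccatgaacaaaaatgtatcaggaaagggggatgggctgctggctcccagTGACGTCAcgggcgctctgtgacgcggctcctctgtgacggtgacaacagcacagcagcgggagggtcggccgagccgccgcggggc

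The Cfap161 window held RFX and MYB matches in adjoining and overlapping positions, and the 2 windows of Tekt1, from different start sites, held an RFX match in one and a CRE and a MYB match in the other. In Spag6l and Spag4 the CRE core matched on both strands at one palindrome, and the Akap3 window held a MYB match. The RFX core site was found in 12 of the 67 members (17.9%), against 5.02% of the 27025 genes with a window. MYB matches were found in 17 members (25.4%, against 14.5% of all genes), CRE matches in 4 (5.97%, against 3.6%) and FOXJ1 matches in 4 (5.97%, against 4.05%). Of the members that fell with PTU in wild type testis at day 15, 11 of the 44 with a window held an RFX core site, as did 0 of the 18 tested members with a window that did not fall. For MYB matches the same shares were 27.3% and 22.2%, for CRE matches 6.82% and 5.56%, and for FOXJ1 matches 9.09% and 0%. None of these splits was tested. Genes with several start sites were counted once if any window matched, and a match is a description of letters, not of binding.

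At day 15, PTU exposure was accompanied by lower axonemal RNA in wild type testis. Of 74 members tested, 51 fell and 1, Cfap47, rose, while 8.75% of all genes tested were called lower and 6.53% higher. The median member change was -1.02, against 0.03 for all genes. By role group, 10 of 15 dynein heavy chains, 5 of 5 tektins, 2 of 4 radial spoke genes, 26 of 29 Cfap genes, 6 of 11 Spag genes and 2 of 7 Odf genes fell, and neither Dnal gene nor Akap3 was called. Unexposed wild type testis had the highest mean of the 6 groups in 59 of 74 members, and in 46 of them all 3 of its arrays lay above every other array of that day. Neither count was made over all genes tested, so no background share stands beside them.

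Dynein heavy chains carry the motor domains of the arms. Dnah8, an outer arm heavy chain of sperm, measured 9.82, 8.62 and 8.35 in PTU-exposed wild type testes, against 11.42, 10.92 and 11.18 in unexposed wild type testes. All exposed arrays lay below all unexposed ones, and the fall was 2.24 on the log2 scale (SE 0.52, adjusted p = 0.00828, limma). Dnah17, another sperm outer arm chain, fell by 1.72 (SE 0.22), and Dnah1, an inner arm chain, fell by 1.62 (SE 0.23). Dnah6, also an inner arm chain, averaged 5.65 ± 0.44 in exposed and 7.91 ± 0.25 in unexposed wild type testes (SD, n = 3 each), the largest fall of the heavy chains (adjusted p = 2.62e-05, limma). Dnah5, Dnah9 and Dnah11, known as outer arm chains of airway cilia, had changes of -0.02, -0.01 and 0.16 and were not called. Their means in unexposed wild type testes, 5.37, 5.94 and 5.69, lay near the 25th percentile of that day (5.56), so a fall could hardly be seen. Dnah7a, Dnah7b and Dnah7c are near copies of one another, so how their probes divide the signal is uncertain.

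**Figure D1:**
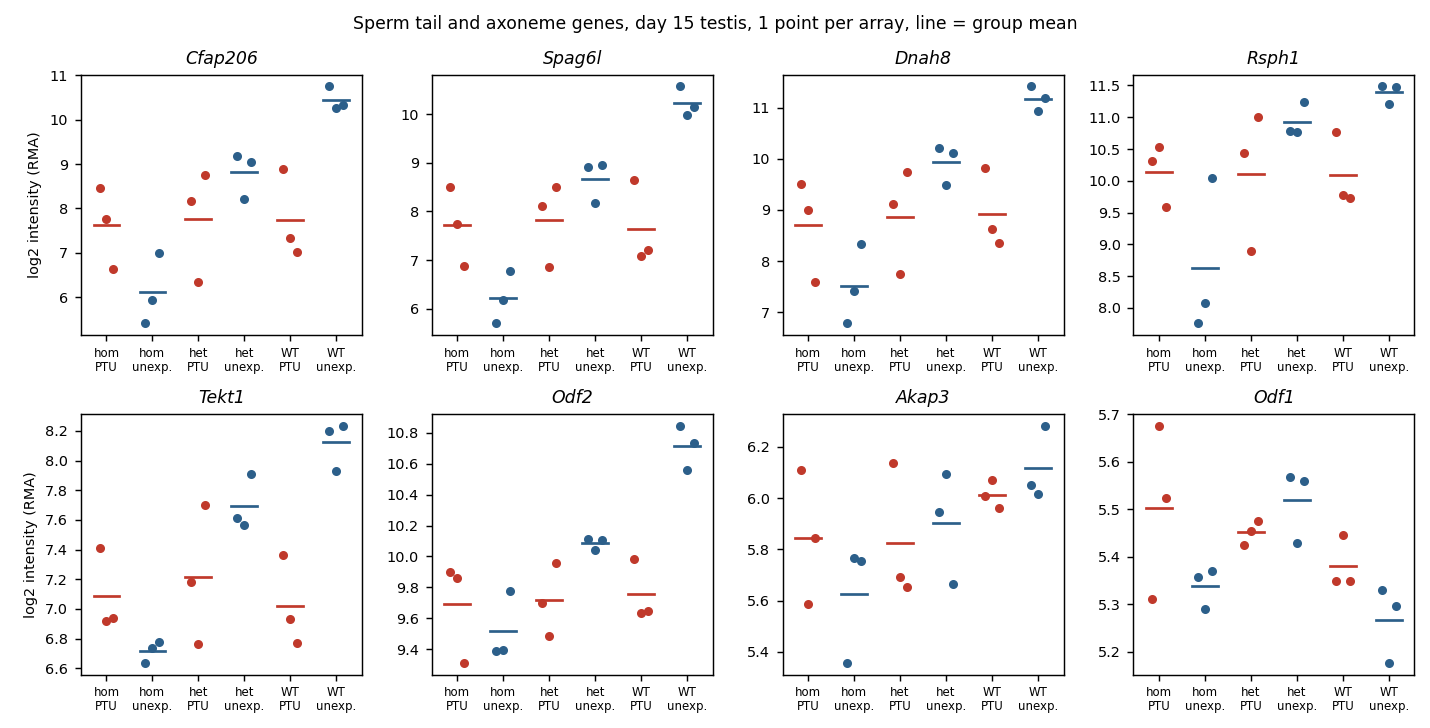
Log2 intensity (y axis) of 8 members in each array of day 15, by Akt1 genotype and exposure (hom, homozygous; het, heterozygous; WT, wild type). Points are arrays and lines are group means; in Cfap206, Spag6l, Dnah8, Tekt1 and Odf2 the 3 unexposed wild type arrays are the highest, whereas Odf1 stays between 5.18 and 5.68 in all arrays.

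Radial spoke and tektin genes moved the same way. Rsph9, a spoke head gene, averaged 7.65 ± 0.12 in exposed and 8.87 ± 0.11 in unexposed wild type testes, a fall of 1.23 (SE 0.15, adjusted p = 3.93e-05, limma). Rsph6a, a spoke head gene of sperm, fell by 1.31 (SE 0.15). Rsph1, a further spoke head gene, measured 10.77, 9.78 and 9.72 in exposed against 11.49, 11.21 and 11.48 in unexposed wild type testes. These groups did not overlap, yet its change of -1.30 (SE 0.52) was not called (adjusted p = 0.101, limma). Tekt2 measured 6.99, 6.69 and 6.61 in exposed and 8.17, 7.66 and 7.78 in unexposed wild type testes, a fall of 1.11 (SE 0.13, adjusted p = 3.74e-05, limma). The other tektins fell by 0.89 (Tekt4) to 1.44 (Tekt3), with Tekt1 at 1.10.

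The Cfap genes code for proteins associated with cilia and flagella, among them doublet inner proteins and spoke base proteins. Cfap206, known at the base of a radial spoke, measured 8.88, 7.33 and 7.01 in exposed and 10.75, 10.26 and 10.33 in unexposed wild type testes. It fell by 2.71 (SE 0.59, adjusted p = 0.00558, limma), the largest fall of all members. Cfap161, an inner protein of doublets, fell by 1.64 (SE 0.20), Cfap52, likewise an inner protein, by 2.05 (SE 0.34), Cfap44 by 1.90 and Cfap70, linked to the outer dynein arms, by 2.58 (SE 0.43). Cfap47 was the exception: it measured 6.80, 6.75 and 7.02 in exposed and 6.16, 6.31 and 6.47 in unexposed wild type testes, a rise of 0.54 (SE 0.16, adjusted p = 0.033, limma). Cfap77 and Cfap20dc, at 0.02 and -0.05, were the other Cfap genes not called lower.

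Genes of the central apparatus were among those with the largest falls. Spag6l measured 8.64, 7.08 and 7.22 in exposed and 10.57, 9.98 and 10.15 in unexposed wild type testes, a fall of 2.59 (SE 0.46, adjusted p = 0.00131, limma). Spag17 fell by 2.58 (SE 0.52) and Spag16 by 1.68 (SE 0.39), while Spag6, a close paralogue of Spag6l whose probes may share signal with it, had 6.08 ± 0.08 in exposed and 6.23 ± 0.05 in unexposed wild type testes and was not called. The Spag symbols also cover genes with other roles: Spag5, a spindle protein, fell by 0.69, and Spag9, a scaffold of stress kinase signalling, was 10.52 ± 0.04 in exposed and 10.51 ± 0.05 in unexposed wild type testes.

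Some genes of the dense fibres fell at this age, while others and Akap3 were not called. Odf2, which codes for a dense fibre protein also found at centrioles, measured 9.98, 9.64 and 9.64 in exposed and 10.84, 10.56 and 10.74 in unexposed wild type testes, a fall of 0.96 (SE 0.16, adjusted p = 0.0007, limma). Odf4 fell by 2.05 (SE 0.52). Odf1, the major dense fibre protein, lay at 5.35, 5.44 and 5.35 in exposed and 5.33, 5.18 and 5.30 in unexposed wild type testes, below the 25th percentile of all values of that day (5.56). Akap3, a fibrous sheath scaffold for protein kinase A, measured 6.01, 6.07 and 5.96 in exposed and 6.05, 6.02 and 6.28 in unexposed wild type testes. Akap4, the main fibrous sheath protein, ranged from 4.30 to 5.12 over all 18 arrays and was not tested. Odf3, Spag4 and Spag6 likewise had changes between -0.15 and 0.19. Akap3, Odf3 and Spag6 averaged 6.12, 5.93 and 6.23 in unexposed wild type testes, so they had limited room to fall.

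Mice without PTU showed a stepwise difference by Akt1 genotype at day 15. The same 3 unexposed wild type arrays serve here, in the PTU comparison in wild type testis and in the difference of PTU effects. These results are therefore not independent of one another. In unexposed homozygous against unexposed wild type testis 56 of 74 members fell and 0 rose, with 58 at an unadjusted p under 0.05 by limma, against 14.2% of all genes called lower and 14.6% higher. Among the 16710 genes tested 6661 had such an unadjusted p. The median member change was -1.19, and unexposed homozygous testis had the lowest mean of the 6 groups in 52 members, a count not made over all genes. Cfap206 measured 5.41, 5.94 and 6.99 in unexposed homozygous testes, against the wild type values given above, a fall of 4.34 (SE 0.59, adjusted p = 4.41e-05, limma). The changes of other members that fell were -4.02 in Spag6l (SE 0.46), -3.70 in Odf4, -3.67 in Dnah8 (SE 0.52), -3.16 in Cfap52, -2.99 in Spag16 and -2.77 in Rsph1 (SE 0.52). The 5 tektins fell by 0.76 to 1.55. Odf1, Spag6 and Spag4 had changes of 0.07, -0.09 and 0.23 and were not called, while Akap3 fell by 0.49 (SE 0.16, adjusted p = 0.0269, limma).

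Unexposed heterozygous testis lay between the other genotypes for most members. The order homozygous below heterozygous below wild type held for the group means of 60 of 74 members (81.1%), against 21.1% of all genes tested. Against unexposed wild type, 21 members fell and 0 rose, while 3.23% of all genes were called lower and 0.718% higher, 3.95% in all. At an unadjusted p under 0.05 by limma there were 46 members and 3700 of the 16710 genes tested. Tekt2 fell by 1.00 (SE 0.13), Dnah6 by 1.77 (SE 0.25), Cfap161 by 1.38 (SE 0.20) and Cfap70 by 1.81 (SE 0.43). The count of members called was 11 without unexposed wild type array 1 and 13 without unexposed heterozygous array 2. Unexposed homozygous against unexposed heterozygous testis gave 33 members lower and 0 higher (4.51% of all genes lower, 1.75% higher, 6.25% in all), with Rsph1 at 7.76, 8.07 and 10.04 in homozygous and 10.78, 10.77 and 11.25 in heterozygous testes, a fall of 2.31 (SE 0.52). The count of 33 dropped to 0 when unexposed homozygous array 1 or 2, or unexposed heterozygous array 1 or 3, was left out.

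In mutant testis of day 15 no member was called with PTU. In heterozygous testis 0 members were called, with 16 at an unadjusted p under 0.05 by limma and a median change of -0.30, while 0.569% of all genes were called. Among the 16710 genes tested 2264 had such an unadjusted p, a smaller share than among the members. In homozygous testis 0 members were called, with 24 at an unadjusted p under 0.05 by limma, while 4.96% of all genes were called, 0.586% higher and 4.37% lower. The unadjusted count over all genes was 3771 there, again a smaller share than among the members. The median member change in homozygous testis was 0.29 and 67 of 74 members had a positive difference. Odf4 measured 7.89, 8.15 and 6.49 in exposed and 4.94, 5.55 and 6.79 in unexposed homozygous testes, overlapping groups with a difference of 1.75 (SE 0.52, adjusted p = 0.06, limma). The PTU effect in homozygous minus that in wild type testis was called positive for 54 members and negative for 1, Cfap47, against 8.23% and 8.13% of all genes. For Cfap206 the 2 PTU effects were 1.51 in homozygous and -2.71 in wild type testis, a difference of 4.21 (SE 0.84, adjusted p = 0.00321, limma). Whether the PTU effect in heterozygous testis differed from that in wild type was not tested.

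Among PTU-exposed mice of day 15 no genotype difference was called for the members. Homozygous against wild type gave 0 of 74 members and 0% of all genes called, with a median member change of 0.03. At an unadjusted p under 0.05 by limma there were 8 members. Among the 16710 genes tested 4266 had such a p, a larger share than among the members. The sample numbers paired the exposed homozygous and exposed wild type arrays, and with the number as a block 3 members were called lower. Heterozygous against wild type and homozygous against heterozygous gave 0 each, with 3 members each at an unadjusted p under 0.05 by limma and 0% of all genes called. Over all genes tested, the unadjusted counts were 887 and 984. The 95% interval for Cfap206 shows what this design could not exclude: in exposed homozygous against exposed wild type testis its difference was -0.12 with an interval from -1.37 to 1.13.

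**Figure D2:**
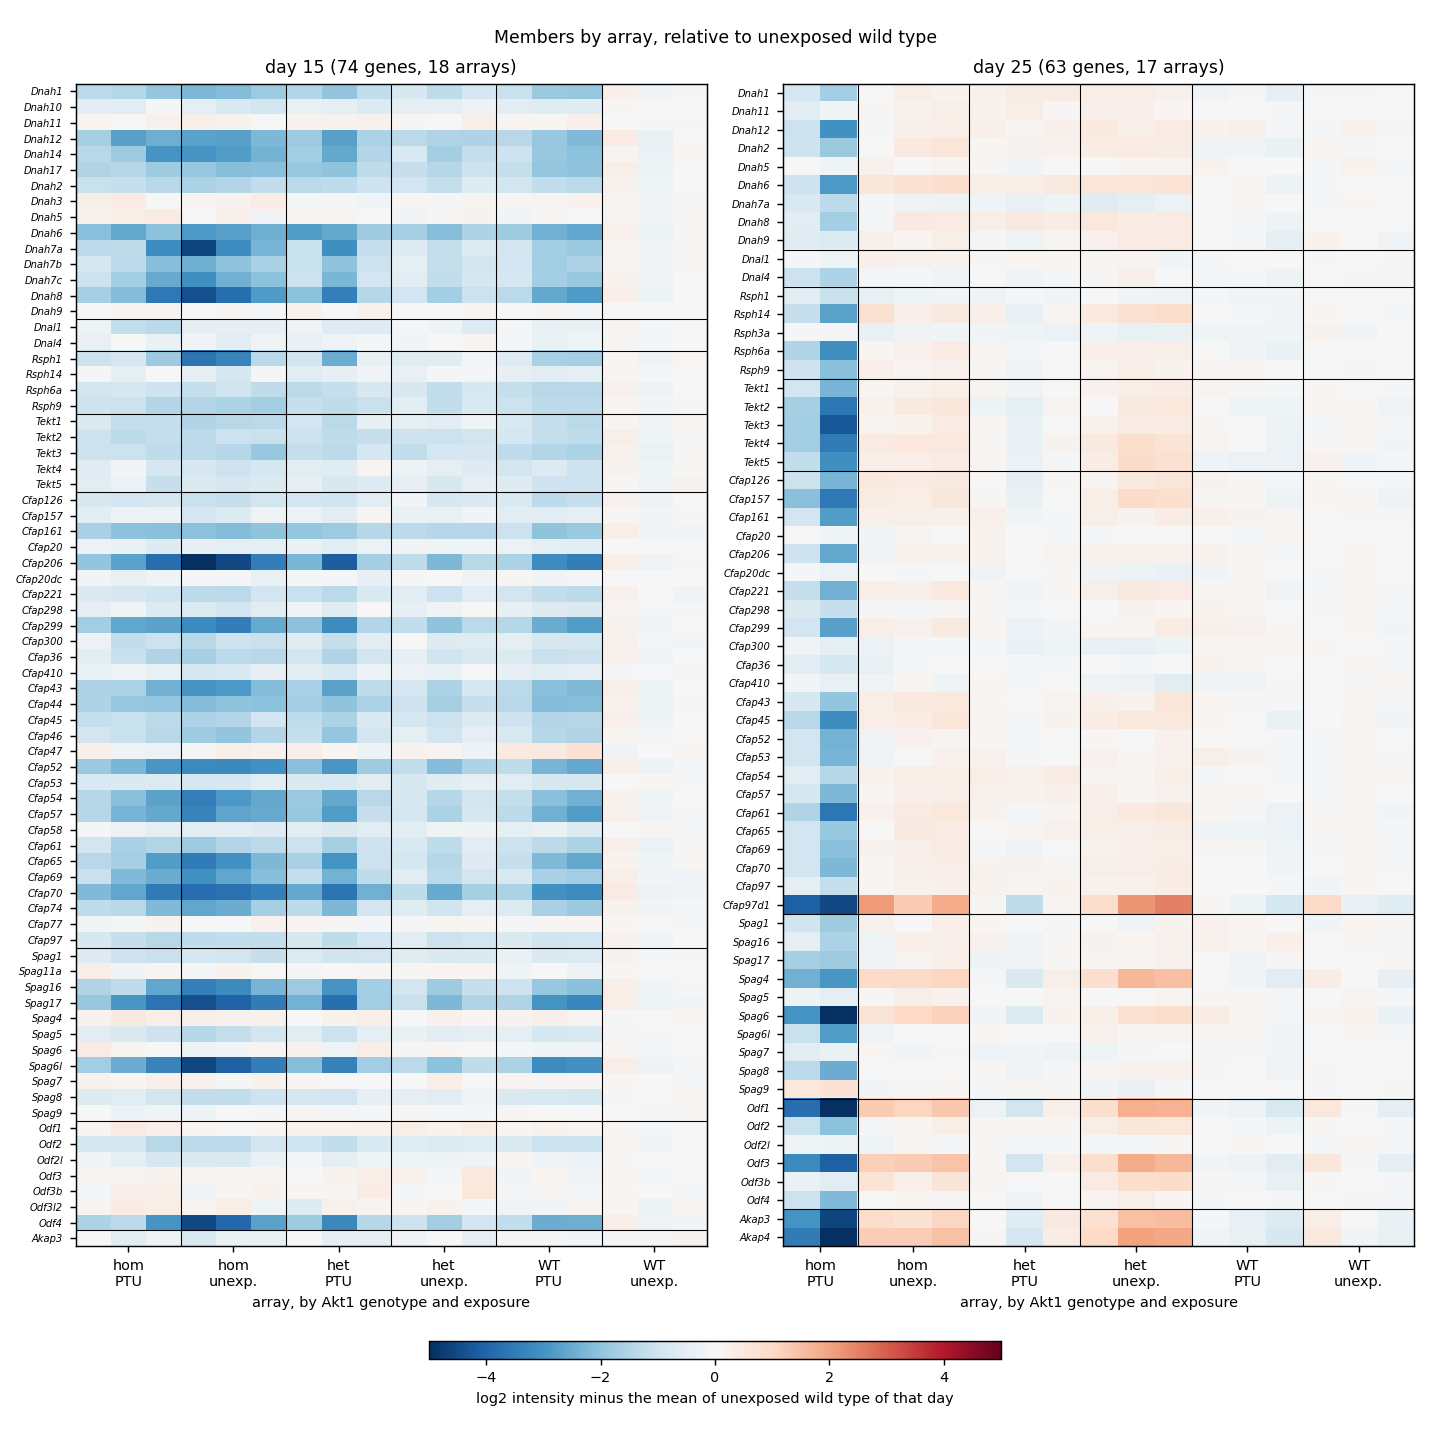
Heat map of every tested member (rows, by role group) in every array (columns), as log2 intensity minus the mean of unexposed wild type of that day, blue lower and red higher. At day 15 most rows are blue outside the unexposed wild type arrays; at day 25 the 2 PTU-exposed homozygous arrays are blue in most rows, the second more deeply.

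Other gene lists and sample features moved with the day 15 result. Of all genes, 8.75% were called lower and 6.53% higher with PTU in wild type testis. By genotype, in unexposed homozygous against wild type testis, these shares were 14.2% and 14.6%. Of 48 tested axonemal genes outside the symbol rule, 42 fell with PTU in wild type and 46 fell in unexposed homozygous against wild type testis. The 3 with the smallest p with PTU were Nme8 (-1.64), Drc7 (-1.61) and Ccdc113 (-2.05). Of 29 intraflagellar transport genes, which carry cargo along a growing flagellum, 16 fell and 1 rose with PTU, and 23 fell by genotype, with Ift140 at -1.21 and -1.47. Pachytene spermatocyte markers fell for 12 of 17 with PTU and for 14 of 17 by genotype. Their summed intensity was 6564 to 12208 in exposed wild type, 3658 to 6099 in unexposed homozygous and 20692 to 26820 in unexposed wild type testes. Early meiotic markers fell for 1 of 19 with PTU and for 14 of 19 by genotype. Sertoli markers rose for 6 and fell for 2 of 19 with PTU, and rose for 11 and fell for 1 by genotype, while macrophage markers fell for 8 and 4 of 12. The part of these cell types in the members' change was not tested.

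Efferent duct cells carry motile cilia, so their markers were read beside the members. Of 13 tested markers of multiciliated cells, 2 fell and 1 rose with PTU in wild type testis (8.75% of all genes lower, 6.53% higher). The summed intensity of the list was 1425 to 1454 in exposed and 1661 to 1945 in unexposed wild type testes. Cdhr4, which weighs heavily in that sum, measured 7.67, 7.24 and 6.90 in exposed and 9.33, 8.79 and 9.03 in unexposed wild type testes. Tppp3 lay the other way, at 7.52, 7.90 and 7.80 in exposed and 7.26, 7.15 and 7.33 in unexposed wild type testes. The sum is thus not a measure of the list as a whole. Foxj1, the master regulator of multiciliated cells, lay between 5.62 and 5.91 in exposed and between 5.76 and 5.90 in unexposed wild type testes. Sntn stayed below the 25th percentile in all 18 arrays. Spink8, an epididymal transcript, exceeded 7 in 3 arrays: exposed homozygous array 2, at 8.74, and arrays 2 and 3 of unexposed wild type, at 9.38 and 7.91. It was 4.97 in unexposed wild type array 1. The median over members was 8.47 in that array and 8.23 and 8.38 in the other 2. The part of epididymal RNA in the members' change at day 15 was not tested. Without those 3 arrays, which leaves unexposed wild type with 1 array assumed to vary like the others, 30 members fell with PTU in wild type, 50 fell in unexposed homozygous against wild type, 10 fell in unexposed heterozygous against wild type, and 34 had a called difference of PTU effects. Cfap47 was not called there. The arrays of day 15 also formed 2 sets by their unannotated probe sets, with all wild type arrays in the first. Within the first set 55 members were called with PTU in wild type and 59 in unexposed homozygous against wild type testis. That set holds 1 unexposed heterozygous array, assumed to vary like the other groups, and with it 0 members were called in unexposed heterozygous against wild type and 28 in unexposed homozygous against heterozygous testis.

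At day 25 the members responded to PTU in homozygous testis. Of 63 tested, 56 fell and 1, Spag9, rose, in a comparison in which 32.8% of all genes were called lower and 38.4% higher, 71.2% in all. The median member change was -1.78, against 0.02 for all genes. All 9 dynein heavy chains, both Dnal genes, 4 of 5 radial spoke genes, 5 of 5 tektins, 20 of 24 Cfap genes, 9 of 10 Spag genes, 5 of 6 Odf genes and both Akap genes fell. In 54 of 63 members both exposed homozygous arrays lay below all other arrays of that day. The share of all genes tested with that pattern was not counted. With only 2 exposed homozygous arrays the spread comes mostly from the other groups. Array 2 was lower than array 1 in 60 of 63 members, by a median of 1.13. Leaving out either array leaves this group with 1 array and no spread of its own, so such a fit cannot show how firm the count is.

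The largest falls included genes of the outer dense fibres and the fibrous sheath. Odf1 measured 7.24 and 4.39 in exposed homozygous testes, against 12.34, 12.11 and 12.40 in unexposed homozygous testes. It fell by 6.47 (SE 0.59, adjusted p = 4.3e-07, limma), and array 2 lay below the 25th percentile of that day (4.76). Akap4 measured 6.80 and 4.82 in exposed and 11.52, 11.54 and 11.74 in unexposed homozygous testes, a fall of 5.79 (SE 0.48, adjusted p = 2.3e-07, limma). Akap3 measured 9.04 and 7.43 in exposed and 12.88, 12.74 and 13.02 in unexposed homozygous testes, a fall of 4.65 (SE 0.39). Odf3, a tail protein first described in spermatids, fell by 4.92 (SE 0.37). Cfap97d1 measured 4.33 and 3.90 in exposed and 10.57, 9.70 and 10.26 in unexposed homozygous testes. Both exposed values lay below the 25th percentile, so its fitted change of -6.06 gives the direction and not a measured size. Odf2 measured 11.65 and 10.68 in exposed and 12.66, 12.86 and 13.04 in unexposed homozygous testes, and its fall of 1.68 (SE 0.20) was within the range of the axonemal members.

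**Figure D3:**
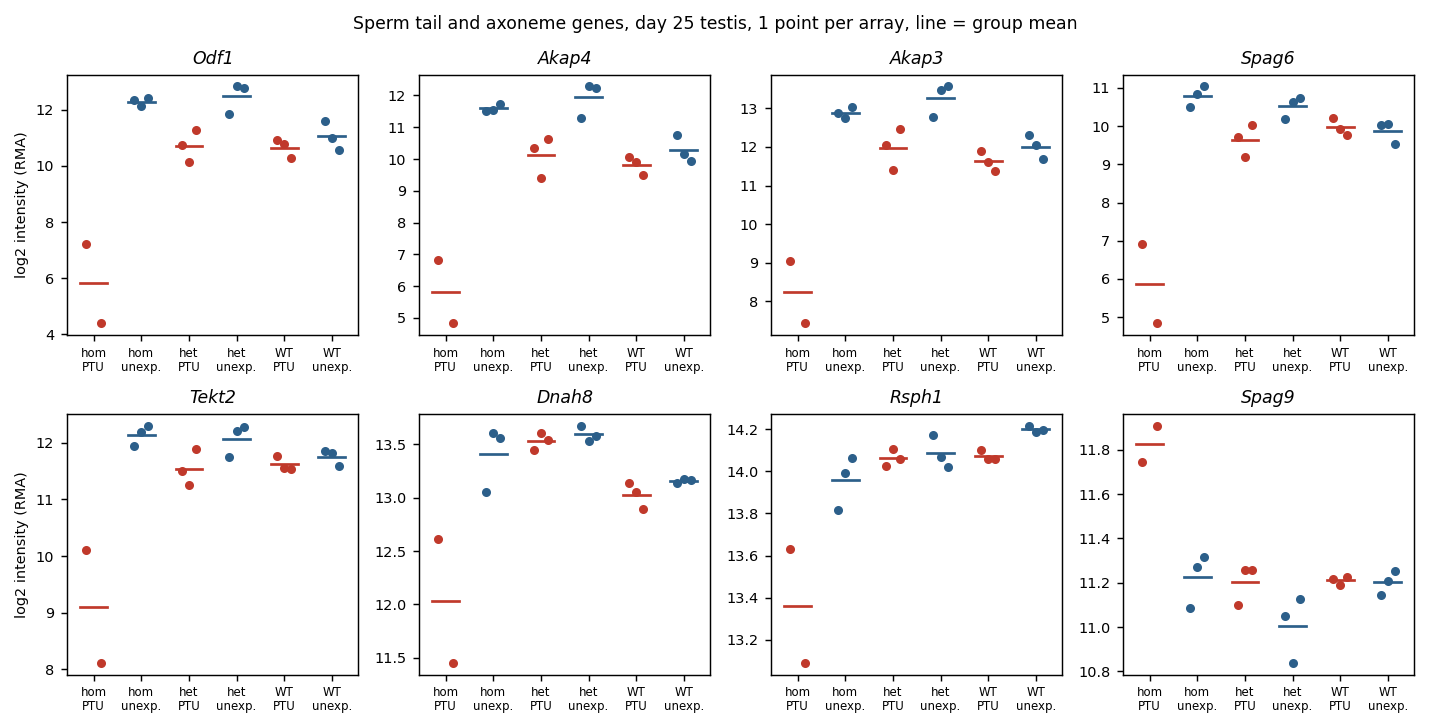
Log2 intensity (y axis) of 8 members in each array of day 25, by Akt1 genotype and exposure (hom, homozygous; het, heterozygous; WT, wild type). Points are arrays and lines are group means; the 2 exposed homozygous arrays are the lowest in 7 of the panels and the highest in Spag9.

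Central apparatus and doublet genes followed. Spag6 measured 6.92 and 4.83 in exposed and 10.51, 10.85 and 11.04 in unexposed homozygous testes, a fall of 4.92 (SE 0.43, adjusted p = 3.06e-07, limma), whereas Spag6l fell by 1.92. Spag4, a nuclear envelope protein of spermatids, fell by 3.66 (SE 0.29). Spag17 fell by 1.83 and Spag16 by 1.10 (SE 0.24). Of the 3 tested Spag16 probe sets, 2 fell and the dimmest, with a mean level of 4.40, rose by 0.45, so its change depends on the probe set. Tekt2 measured 10.10 and 8.12 in exposed and 11.94, 12.18 and 12.30 in unexposed homozygous testes, a fall of 3.03 (SE 0.38, adjusted p = 5.5e-06, limma). Tekt3 fell by 3.21, Tekt4 by 3.12 and Tekt1 by 1.86.

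Arm and spoke genes fell as well. Dnah8 measured 12.62 and 11.45 in exposed and 13.05, 13.61 and 13.56 in unexposed homozygous testes, a fall of 1.37 (SE 0.24, adjusted p = 0.000104, limma). Dnah1 fell by 1.42 (SE 0.18) and Dnah6 by 2.67 (SE 0.32). Dnal4, a dynein light chain, fell by 1.20 (SE 0.12). Rsph6a fell by 2.53 (SE 0.29) and Rsph1 by 0.60 (SE 0.12), with Rsph1 at 13.63 and 13.09 in exposed and 13.82, 13.99 and 14.06 in unexposed homozygous testes, high on the scale of this array. Cfap157 fell by 3.25 (SE 0.30), the largest fall of a Cfap gene after Cfap97d1. Spag9 measured 11.75 and 11.91 in exposed and 11.08, 11.27 and 11.32 in unexposed homozygous testes, a rise of 0.60 (SE 0.10, adjusted p = 9e-05, limma). Dnah17 lay between 4.06 and 4.42 in all 17 arrays and was not tested.

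In wild type testis of day 25 PTU gave 0 of 63 members called, 0 at an unadjusted p under 0.05 by limma, and 0% of all genes called. Among the 16305 genes tested 978 had such an unadjusted p. Odf1 measured 10.91, 10.76 and 10.28 in exposed and 11.60, 10.99 and 10.57 in unexposed wild type testes, overlapping groups with a difference of -0.40 and a 95% interval from -1.53 to 0.73. The PTU effect in homozygous minus that in wild type testis was called negative for 54 members and positive for 1, Spag9, against 26.3% and 33.1% of all genes. Exposed homozygous against exposed wild type testis gave 55 members lower and 1 higher (28.4% of all genes lower, 32.7% higher, 61.1% in all), and against exposed heterozygous testis the counts were again 55 and 1 (31.4% lower, 33.3% higher). Odf1, for example, lay at 10.75, 10.12 and 11.29 in exposed heterozygous testes, 4.91 above the exposed homozygous mean.

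In heterozygous testis of day 25 the members that fell with PTU included 3 Odf genes and both Akap genes. Of 63 members 8 fell (12.7%) and 1, Cfap410, rose, while 7.2% of all genes were called lower and 11.5% higher. In all 14.3% of the members were called, below the 18.7% of all genes. The 8 were Akap3, Akap4, Odf1, Odf3, Odf3b, Spag4, Cfap97d1 and Dnah9. Akap4 measured 10.34, 9.41 and 10.64 in exposed and 11.30, 12.29 and 12.23 in unexposed heterozygous testes, a fall of 1.81 (SE 0.43, adjusted p = 0.0114, limma). Cfap97d1 fell by 2.22 (SE 0.48), Odf1 by 1.76 (SE 0.53), Odf3 by 1.66 (SE 0.33), Spag4 by 1.51 (SE 0.26), Akap3 by 1.30 (SE 0.35), Odf3b by 0.69 (SE 0.14) and Dnah9 by 0.39 (SE 0.13). No tektin and no radial spoke gene was called, with Tekt2 at -0.53 and Rsph1 at -0.03. In homozygous testis 88.9% of members tested and 32.8% of all genes were called lower, so most of any 8 members would fall there. All of these 8 did. Of the 6 tested at day 15, 0 fell with PTU in wild type testis, where 8.75% of all genes were called lower. Their means in unexposed wild type testes of day 15 ran from 5.27 (Odf1) to 7.04 (Spag4). The 25th and 50th percentiles of that day were 5.56 and 7.07, so these members had limited room to fall. The count was 4 without exposed heterozygous array 2, in which Spink8 was 10.07, 4 without unexposed heterozygous array 2, and 5 without unexposed heterozygous array 3.

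**Figure D4:**
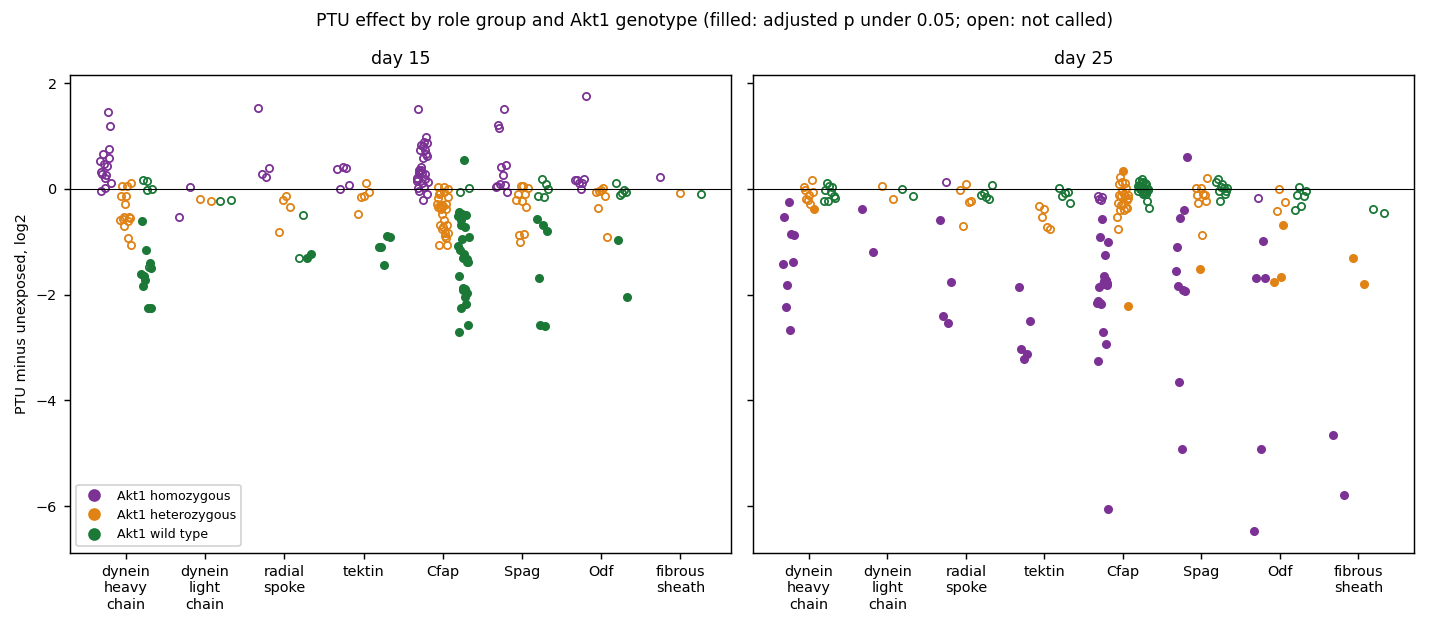
PTU effect (y axis, PTU minus unexposed, log2) of each tested member by role group, at day 15 (left) and day 25 (right), for the 3 Akt1 genotypes. Filled points were called and open points were not; at day 15 the called points are wild type, and at day 25 they are homozygous with 9 heterozygous points.

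Without PTU, the share of members called higher by genotype at day 25 was near that of all genes. In unexposed homozygous against wild type testis 4 members rose and 0 fell, while 5.35% of all genes were called higher and 7.32% lower. At an unadjusted p under 0.05 by limma there were 13 members and 4774 of the 16305 genes tested. Cfap97d1 rose by 1.76 (SE 0.48), Odf3 by 1.30 (SE 0.33), Spag4 by 1.01 (SE 0.26) and Odf3b by 0.53 (SE 0.14). Odf3 measured 10.91, 10.99 and 11.15 in unexposed homozygous and 10.27, 9.65 and 9.23 in unexposed wild type testes, groups that did not overlap. The 4 are 6.35% of the members tested. In unexposed heterozygous against wild type testis, which shares those controls, 6 rose, 9.52% of the members, and 4 fell (8.32% of all genes higher, 14.3% lower). Round spermatid markers rose for 7 of 19 in unexposed homozygous (median 1.07) and for 14 of 19 in unexposed heterozygous testis (median 1.27). Sertoli markers fell for 3 of 19 in unexposed homozygous and for 11 of 19 in unexposed heterozygous testis. Their part in the change of these members was not tested. Odf3b, Spag4, Odf3, Cfap97d1, Akap4 and Akap3 rose by 0.74 to 1.87, and Cfap300, Cfap410, Dnah7a and Rsph3a fell by 0.30 to 0.45. Unexposed homozygous against heterozygous testis gave 0 members and 0% of all genes. Exposed heterozygous against wild type testis gave 0 members and 0.092% of all genes, 0.0245% higher and 0.0675% lower. At an unadjusted p under 0.05 by limma these 2 comparisons had 5 and 6 members, and 1807 and 2208 of all genes. The homozygous count fell to 0 without unexposed homozygous array 1 or 3 or unexposed wild type array 2 or 3. The heterozygous count was 3 without unexposed heterozygous array 2 or unexposed wild type array 3, and 5 without unexposed heterozygous array 3.

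Marker lists moved with the day 25 result as well. With PTU 32.8% of all genes were called lower and 38.4% higher in homozygous testis, and 7.2% and 11.5% in heterozygous testis. With PTU in homozygous testis all 19 round spermatid markers fell, and their summed intensity was 1415 to 3525 in exposed and 52552 to 74114 in unexposed homozygous testes. Pachytene markers fell for 16 of 18, whereas spermatogonial markers rose for 12 of 13, early meiotic markers rose for 12 and fell for 3 of 20, and Sertoli markers rose for 12 and fell for 3 of 19. In heterozygous testis 18 of 19 round spermatid markers but 2 of 18 pachytene markers fell with PTU. Of the axonemal genes outside the rule, 50 of 50 fell with PTU in homozygous and 3 of 50 in heterozygous testis, and of other sperm tail genes 26 of 28 and 17 of 28 fell. Ropn1, a fibrous sheath partner, fell by 4.98 in homozygous and 1.48 in heterozygous testis. Among regulators, Foxj1 fell by 3.34 and Rfx3 by 2.47 in homozygous testis, and Rfx3 by 0.95 in heterozygous testis.

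Epididymal RNA also differed in the exposed homozygous arrays of day 25, and a measure of RNA quality differed in both homozygous groups of that day. With PTU in homozygous testis, where 38.4% of all genes rose and 32.8% fell, 7 of 9 tested epididymal markers rose and 1 fell. Their summed intensity was 10277 to 11100 in the 2 exposed homozygous arrays and 512.5 to 2039 in all others, and Spink8 was 12.92 and 12.75 there. Of 11 tested multiciliated markers 4 rose and 6 fell with PTU in homozygous testis, with Aqp1 at 6.48 and 5.97 in exposed and 4.42, 4.45 and 4.53 in unexposed homozygous testes. The list summed to 1500 to 2309 in exposed and 6227 to 6790 in unexposed homozygous testes, and Foxj1, on that list too, was 6.62 and 5.69 in exposed and 9.40, 9.40 and 9.70 in unexposed homozygous testes. Cdhr4, the brightest of the list, was 10.07 and 8.77 in exposed homozygous testes and 10.96 to 11.48 in all other arrays. Such bright genes dominate the sum. Tppp3 lay the other way, at 7.84 and 8.16 in exposed and 7.37, 7.28 and 7.31 in unexposed homozygous testes. The sum thus does not describe the list as a whole. The beta-actin 3 prime minus 5 prime difference, a measure of RNA degradation, was 1.08 and 1.44 in exposed homozygous, 0.95 to 1.31 in unexposed homozygous and 0.55 to 0.78 in all other arrays. With this difference as a covariate 56 members were called with PTU in homozygous testis, 54 for the difference of PTU effects and 26 for exposed homozygous against heterozygous testis. In exposed homozygous against wild type testis 1 member was then called, and these groups do not overlap in the covariate. The part of epididymal RNA in the members' fall was not tested.

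The members that fell were compared between the 2 days by name. Of 60 members tested on both days, 42 fell with PTU in wild type testis at day 15 and 54 fell with PTU in homozygous testis at day 25. The 39 in both were 92.9% of the first list and 72.2% of the second. Since 54 of the 60 fell at day 25, most of any list drawn from the 60 would lie in both. The overlap therefore does not show that the 2 days share members beyond the size of the lists. The 15 that were called lower at day 25 and not called lower at day 15, with the difference between days not tested, were Akap3, Dnah11, Dnah5, Dnah7a, Dnah9, Dnal1, Dnal4, Odf1, Odf3, Odf3b, Rsph1, Rsph14, Spag4, Spag6 and Spag7. Missing the call does not show that they did not change at day 15: Dnah7a and Rsph1 had changes of -1.48 and -1.30 there, with groups that did not overlap. Among the 15 are Odf1, Odf3, Spag6, Akap3 and Spag4, the 5 members tested on both days with the largest falls at day 25.

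**Figure D5:**
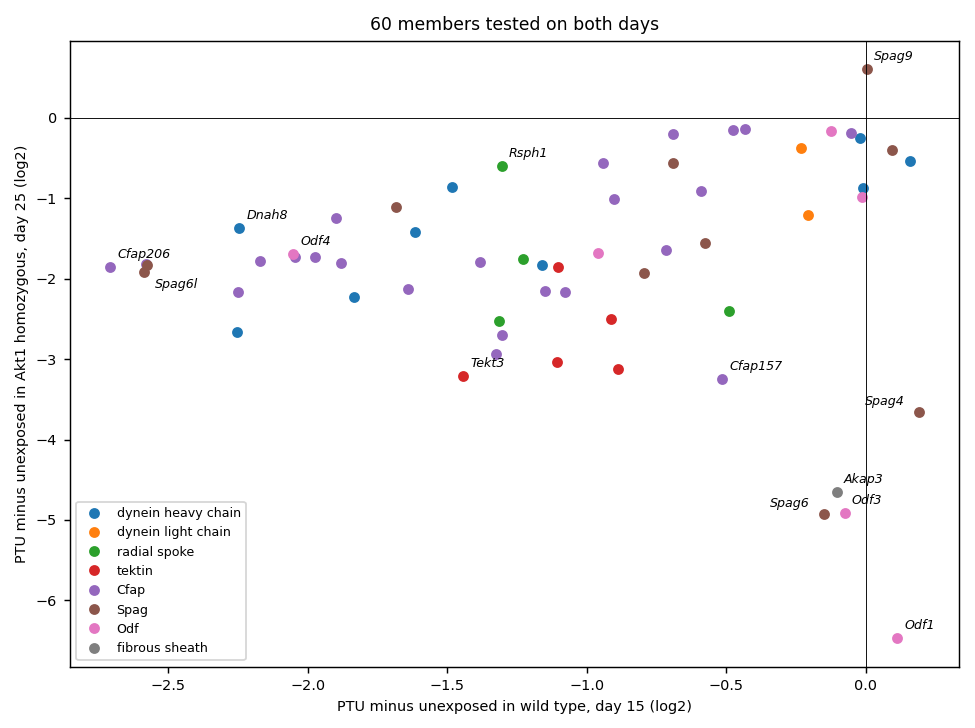
PTU effect in wild type testis at day 15 (x axis, log2) against PTU effect in Akt1 homozygous testis at day 25 (y axis, log2) for 60 members, coloured by role group. Odf1, Odf3, Spag6, Akap3 and Spag4 lie near 0 on the x axis and lowest on the y axis.

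Akt1 itself was measured in every array. At day 15 it was 9.74, 9.01 and 9.18 in exposed homozygous, 9.40, 9.23 and 9.04 in unexposed homozygous, 8.83, 9.79 and 9.67 in exposed heterozygous, 9.52, 9.96 and 9.70 in unexposed heterozygous, 9.92, 9.95 and 10.09 in exposed wild type and 9.34, 9.48 and 9.71 in unexposed wild type testes. At day 25 it lay between 9.17 and 9.55 in all 17 arrays. No genotype difference was called (unexposed homozygous against wild type -0.28 at day 15, adjusted p = 0.35, and -0.12 at day 25, adjusted p = 0.383, limma). Since the sources used here do not say which part of the gene was deleted, these probes do not check the genotype labels.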

How the data were processed

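RNA of 35 testes was measured on 18 arrays at day 15 and 17 at day 25. The authors deposited 1 value table per day of normalized log2 intensities, made by RMA per the submitters' processing notes; array values carry no read depth, and the number of arrays limits the precision. RMA compresses low intensities, so folds of dim genes are understated. Each gene was represented by its brightest probe set with a single symbol. A gene was tested if it exceeded the 25th percentile of that day in at least 2 arrays, 16710 at day 15 and 16305 at day 25. Limma 3.58.1 (R 4.3.3) was fitted per day on the 6 group means, with 10 contrasts per day and Benjamini-Hochberg adjustment over all genes tested. The procedure was tested on simulated data. The members and lists were chosen with earlier results of these data known, so no list is independent evidence. Named members are, per comparison, those with the smallest p among called ones, up to 8 in each direction, the called member with the largest change of each role group, and Akap3, Akap4, Odf1, Odf2, Tekt1, Tekt2, Tekt4, Dnah1, Dnah8, Dnah17, Dnai1, Spag6, Spag16 and Rsph1 always; of other lists, the called genes with the smallest p, up to 3. Others were chosen after their values were seen, and not every named member is printed for every comparison. Replicates are separate mice per the labels. Same-numbered arrays were checked for pairing: all correlations of deviations exceeded 0.1 at day 15 for PTU in heterozygous, exposed homozygous against wild type and unexposed heterozygous against wild type testis, and at day 25 for PTU in wild type. Alternatives were other filters, probe set rules, groups fitted alone, array weights, a replicate block, arrays left out, array sets and a beta-actin covariate. Motifs were searched in RefSeq promoter windows with Python 3.11.15.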

Additional observations from a re-analysis of the deposited data

Results flagged for a closer look

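The PTU effect differed between homozygous and wild type testis by the interaction term of limma for 55 members at day 15 and for 55 members at day 25. Of all genes tested, 16.4% were called at day 15 and 59.4% at day 25. At day 15 the effect in homozygous minus that in wild type testis was 4.21 for Cfap206, 4.09 for Spag6l, 3.80 for Odf4, 3.72 for Spag17, 3.45 for Cfap70 and 3.44 for Dnah8. It was -0.76 for Cfap47. At day 25 it was -6.07 for Odf1, -5.70 for Cfap97d1, -5.32 for Akap4, -5.02 for Spag6, -4.59 for Odf3 and -4.27 for Akap3. It was 0.60 for Spag9. Both exposed homozygous values of Cfap97d1 lay below the 25th percentile of that day, so its size is not a measured one. No group held 4 or more arrays, so single arrays were not tested as outliers.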

How the results depend on the processing

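Counts are members called by limma. With only the groups compared in the fit, 42 were called for unexposed heterozygous against wild type at day 15, and at day 25 16 for PTU in heterozygous, 17 for unexposed homozygous and 28 for unexposed heterozygous against wild type. With array weights, day 15 gave 46 for unexposed heterozygous against wild type, 6 for PTU in homozygous and 2 for exposed homozygous against wild type, and day 25 gave 14 for PTU in heterozygous, 26 for unexposed homozygous, 25 for unexposed heterozygous and 9 for exposed heterozygous against wild type. With a replicate block, day 15 gave 2 for PTU in homozygous and 3 for exposed homozygous against wild type; among the paired comparisons it moved no other count by over 1.5 times (28 for unexposed heterozygous against wild type, 0 for PTU in heterozygous, 0 for PTU in wild type at day 25). The fits within single array sets of day 15 were chosen after seeing the data. Within the first set 0 were called for unexposed heterozygous against wild type, with 1 heterozygous array, and within the second 0 for unexposed homozygous against heterozygous, with 1 homozygous array; with a single array in an arm these counts do not show a dependence on the set. Without the Spink8 arrays day 15 gave 10 for unexposed heterozygous against wild type, 30 for PTU in wild type and 34 for the difference of PTU effects. With the actin covariate at day 25, 0 were called for unexposed homozygous, 16 for unexposed heterozygous and 1 for exposed homozygous against wild type, and 26 for exposed homozygous against heterozygous. The causes were not tested. Leaving out 1 array gave, at day 15, 39 to 51 for PTU in wild type, 0 to 2 in heterozygous, 0 to 6 in homozygous, 53 to 56 for unexposed homozygous against wild type, 11 to 24 for unexposed heterozygous against wild type, 0 to 34 for unexposed homozygous against heterozygous, 0 to 5 for exposed homozygous against wild type and 48 to 54 for the difference of PTU effects. At day 25 it gave 0 for PTU in wild type, 4 to 10 in heterozygous, 56 to 58 in homozygous, 0 to 4 for unexposed homozygous and 3 to 11 for unexposed heterozygous against wild type, 51 to 56 for exposed homozygous against wild type, 53 to 56 against heterozygous and 54 to 57 for the difference of PTU effects. With the median of probe sets, Spag16 in unexposed homozygous against wild type at day 25 was -0.31 and Rsph3a in unexposed heterozygous against wild type was 0.12, both with turned signs. Of 344 results of named members, 226 kept their call under all alternatives and these 2 reversed.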

Other observations

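The dynein genes annotated as Dnaic1, Dnaic2 and Dnali1, intermediate and light intermediate chain genes outside the symbol rule, moved as the members did. At day 15 they fell with PTU in wild type testis by 1.56, 0.45 and 2.03, where 8.75% of all genes were called lower. All 3 fell with PTU in homozygous testis at day 25, where 32.8% of all genes were called lower.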
